A study of Mus musculus with 18 samples.

Results

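The Ifi200 genes and Aim2 form the PYHIN family of the mouse, whose proteins carry a HIN domain that binds DNA, a pyrin domain that binds other proteins, or both. The family was taken here as the genes named Ifi203, Ifi204, Ifi205, Ifi207, Ifi208, Ifi209, Ifi211, Ifi213, Mndal and Aim2, which are 10 of the 21734 protein-coding genes of the table, and all 10 were found there. RNA was measured in 18 libraries of bone marrow-derived macrophages (BMDMs), in 6 groups of 3 biological replicates. The mice were wild type (WT), lacked miR-146a (KO), or carried an allele of miR-146a with an altered 3′ region (3′F), all on a mixed 129 and B6 background and 6 to 7 months old. Marrow of every group was grown in 10 ng/ml M-CSF, and the cells were then left at rest or given 1 ng/ml LPS for 16 h. Both mutant lines came from targeted V6.5 embryonic stem cells and were backcrossed to C57BL6/J, and the WT mice were drawn from both lines.

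AIM2 binds DNA in the cytosol and recruits the adaptor ASC, encoded by Pycard, to activate caspase-1, which matures IL-1β and IL-18. The Ifi200 proteins sit mostly in the nucleus or shuttle between nucleus and cytosol, and the family is known as a set of interferon-inducible genes. LPS binds TLR4, and a branch of that receptor's signal leads to interferon-β, which acts back on the macrophage through its receptor and interferon-stimulated response elements (ISREs). miR-146a restrains TLR4 signalling through Irak1 and Traf6.

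The miRNA strands are shown because the WT and 3′F alleles differ in them. Capitals mark the seed, bases 2 to 8 from the 5′ end. The first is the mature mouse miRNA in RefSeq (GRCm38.p6, chr11:43374435-43374456, minus strand), and the other is the study's synthetic strand for the 3′F allele. The study's WT strand and 3′F strand, both 20 bases long, were identical over the first 12 bases, seed included, and differed at all 8 positions from 13 to 20.
mmu-miR-146a-5p: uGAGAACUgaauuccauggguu
3F mimic strand: uGAGAACUgaauaagugucc

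All 10 members lie on chromosome 1 between 173350879 and 174031810 (mm10, Gencode M21), a span of 680.9 kb, with 3 genes on the plus strand and 7 on the minus strand. The members are close copies of each other in part. Of the 50-base stretches of its annotated transcripts, Ifi211 shares 72.8% with transcripts of other genes, mostly of Ifi205, while Ifi209 shares 33.7%, mostly with Ifi214. The share was 20.9% for Ifi208 and 19.6% for Mndal. It was 7.29% for Ifi207 and 0.742% for Aim2, so Aim2 is the member with the least shared sequence. The counting kept reads above a mapping quality limit and the read length is not given in the sources used here, so reads from shared stretches may have been lost or split, and the levels of Ifi211 and Ifi209 are uncertain in comparison with other genes. Exons of Mndal and Ifi203 also overlap on the same strand.

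Promoter windows of 300 bases, 250 before to 50 after an annotated start, were found in RefSeq (GRCm38.p6) for 9 of the 10 members, 11 windows in all. The ISRE core, searched as GAAANNGAAA on both strands, was present in 7 of these 9, namely Ifi203, Ifi205, Ifi207, Ifi208, Ifi211, Ifi213 and Mndal. It was present in 3.99% of all 27025 genes with a window and in 3.44% of the 32851 windows. The interferon-γ activated site, searched as TTCNNNGAA, was found in 0 of the 9 members and in 9.55% of all genes. Aim2 and Ifi209 had no match to either motif within their windows. The stretches around 7 matches are shown because they are alike in letters between members, with the match in capitals.
Ifi203 (chr1:173942508-173942537, minus strand): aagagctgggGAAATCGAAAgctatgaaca
Mndal (chr1:173880204-173880233, minus strand): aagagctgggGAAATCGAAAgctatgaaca
Ifi208 (chr1:173673597-173673626, plus strand): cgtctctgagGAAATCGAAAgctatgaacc
Ifi213 (chr1:173599326-173599355, minus strand): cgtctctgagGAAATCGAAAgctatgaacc
Ifi207 (chr1:173741831-173741860, minus strand): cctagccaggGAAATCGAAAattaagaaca
Ifi205 (chr1:174031870-174031899, minus strand): ccaggccaggGAAATTGAAAgctatgaaca
Ifi211 (chr1:173913064-173913093, minus strand): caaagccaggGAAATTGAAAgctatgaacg

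The windows printed for Ifi203 and Mndal are the same in every letter, and so are those of Ifi208 and Ifi213. Counted from the annotated start, matches began between position -134 and position 23, both in Ifi205. A match is a description of the letters and not a measured binding site.

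**Figure D1:**
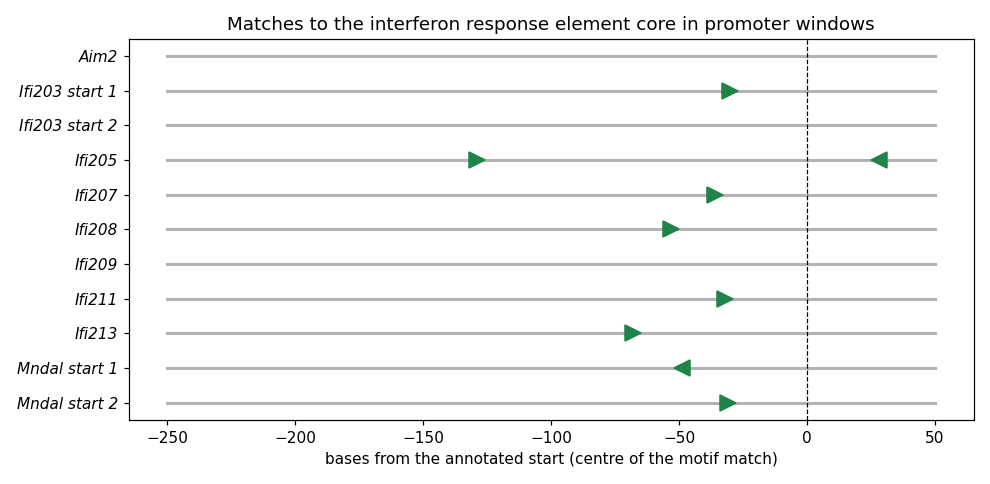
Positions of ISRE core matches (GAAANNGAAA, triangles pointing in the direction of the match) in the 11 promoter windows of 9 members, with the horizontal axis in bases from the annotated start (dashed line). Forward matches begin between position -134 and the start in 7 members, and the windows of Aim2 and Ifi209 hold none.

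Total counts ran from 4071084 in resting 3′F replicate 3 to 19818043 in 3′F LPS replicate 2. The macrophage markers, 8 of 8 detected, summed to between 31772 and 87900 CPM in every library. Of 6 T cell markers, 5 had 3 counts or fewer in every library, and among these Cd3e had 0 counts in all 18. The other T cell marker, Cd4, read 0.449 to 11.2 CPM. CPM is the usual count scaled to library size, here after TMM, a correction for composition. Library totals differ, so 3 counts correspond to 0.164 to 0.702 CPM. The library labelled resting KO replicate 3 stood apart from the other resting libraries and read near the LPS-treated ones for the members, against its label. Not every gene that LPS raised read so in it, as given below. Its label was kept and the reason was not tested. Calls of members that rest on it are given with and without it, and results for other genes with it only. In bulk samples, fewer cells of a type and less RNA per cell cannot be told apart.

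LPS raised all 10 members in WT macrophages. By edgeR's quasi-likelihood test with Benjamini-Hochberg adjustment over 11357 genes, 10 of 10 were called higher at an adjusted p under 0.05, against 16.3% of all genes tested. The 3 LPS libraries lay above the 3 resting ones for 10 of 10 members, against 25.9% of all genes. The median log2 fold change of the members was 4.48 and that of all genes 0.02. The increase ran from 1.56-fold for Aim2 to 168-fold for Ifi205.

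Ifi204 encodes p204, a nuclear and cytosolic DNA sensor linked to STING. It read 34.6, 30.3 and 58.9 CPM in the 3 resting WT libraries and 714, 313 and 1077 CPM in the 3 WT libraries with LPS. The groups did not overlap, and the lowest LPS library stood above the highest resting one. The log2 fold change was 4.09 ± 0.72 (SE, n = 3 per group, edgeR adjusted p = 0.000552).

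Ifi205, whose protein p205 is known to regulate expression of the adaptor ASC, was close to silent at rest, at 0.328, 0.602 and 1.16 CPM in WT. With LPS it read 86.8, 33.5 and 214 CPM. All 3 stimulated libraries were far above all 3 resting ones, and the log2 fold change was 7.39 ± 1.31 (SE, edgeR adjusted p = 0.000573).

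Ifi208 and Ifi213 began lower still. Ifi208 held 7 counts over the 3 resting WT libraries and 692 over the 3 with LPS, and Ifi213 held 8 and 1457. In CPM, Ifi213 went from 0.0657, 0.0753 and 0.58 to 26.3, 9.49 and 69.0. Resting levels of this pair lie at or near the 3 counts that the depth resolves, so their log2 fold changes of 6.44 ± 1.44 and 7.32 ± 1.55 (SE) rest on few resting reads.

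Ifi209 rose from 3.28, 4.82 and 7.16 CPM to 273, 105 and 662 CPM, a log2 fold change of 6.11 ± 1.18 (SE, edgeR adjusted p = 0.00115). Ifi211 rose from 3.35, 5.04 and 9.38 CPM to 168, 89.0 and 254 CPM, a log2 fold change of 4.87 ± 0.81. In both genes the 3 LPS libraries stood above the resting ones without overlap, and in both the second LPS library was the lowest.

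Ifi203 and its neighbour Mndal, named for likeness to the human myeloid antigen MNDA, rose by less. Ifi203 went from 9.92, 14.1 and 23.0 CPM to 211, 133 and 354 CPM (log2 fold change 3.90 ± 0.67). Mndal went from 18.7, 26.7 and 30.2 CPM to 211, 121 and 364 CPM (3.21 ± 0.62). Neither pair of groups overlapped.

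Ifi207, whose protein has been linked to stabilisation of STING, had the highest resting level per length and, after Aim2, the smallest response. It read 57.4, 93.4 and 102 CPM at rest and 236, 155 and 287 CPM with LPS, a log2 fold change of 1.42 ± 0.31. Aim2 had the smallest response, from 43.3, 38.5 and 37.0 CPM to 56.9, 44.9 and 83.7 CPM, with a log2 fold change of 0.64 ± 0.22 (edgeR adjusted p = 0.0374). The Aim2 groups did not overlap, but the gap between the highest resting and lowest LPS library was small, and 7 of 12 alternative settings ended the call (adjusted p up to 0.248, without WT LPS replicate 3). With the replicate block, 9 of 10 members were called in WT and Aim2 was not (edgeR adjusted p = 0.0738), where 1676 of 11357 genes were called higher.

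**Figure D2:**
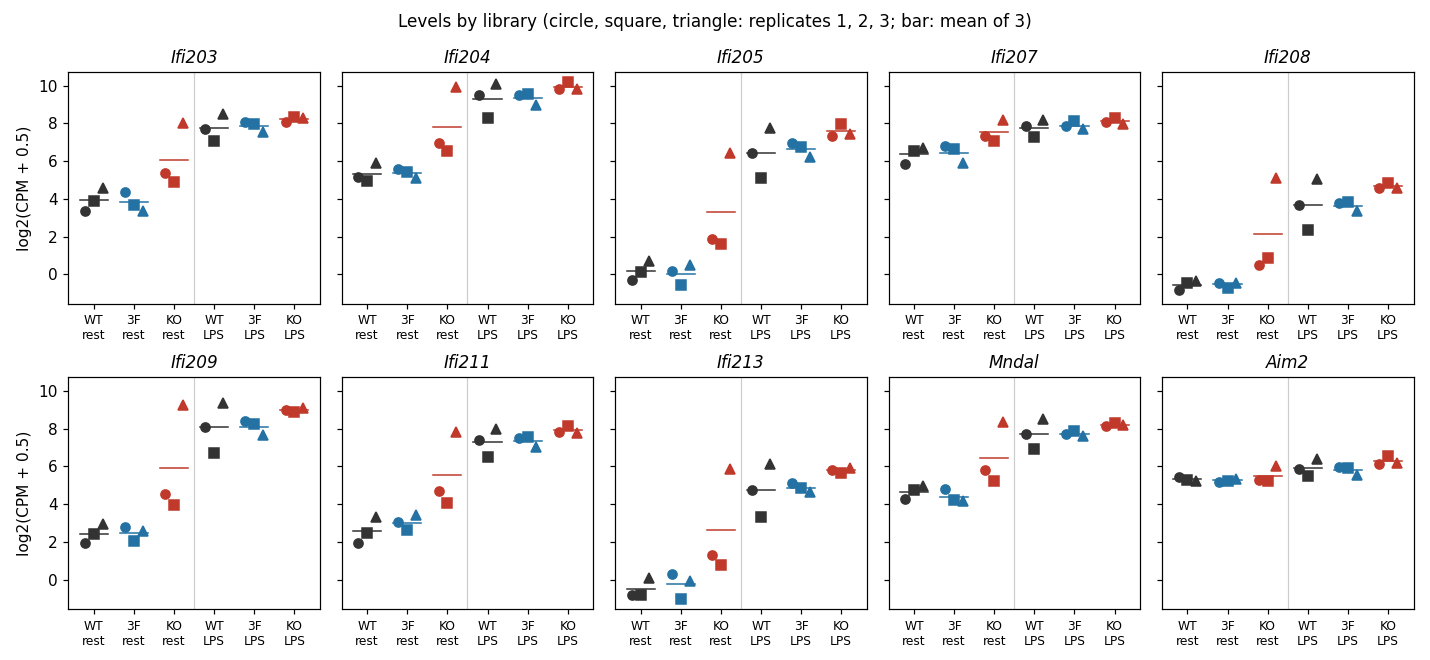
Level of each member in each of the 18 libraries, as log2(CPM + 0.5) on the vertical axis, by group (WT, 3F and KO, resting to the left of the grey line and with LPS to the right). The third resting KO library (triangle) sits at or near the LPS groups for the Ifi genes and Mndal, and resting KO replicates 1 and 2 lie above all resting WT and 3F libraries for 9 of 10 members. The share of all genes with that order was not counted.

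Compared per length, the order of the members changed with LPS. In resting WT macrophages the highest mean level per kb of exon was that of Ifi207, at 24.6 ± 6.91 CPM per kb (SD, n = 3), and Ifi204 and then Aim2, at 13.6 ± 1.13, came next. Ifi207 and Ifi204 overlapped between libraries. With LPS, Ifi204 led at 306 ± 167 CPM per kb, Mndal followed at 108 ± 57.2, and Aim2 came eighth at 21.3 ± 6.84. Ifi213 and Ifi208 stayed the lowest with LPS, at 7.01 ± 6.16 and 5.55 ± 4.94 CPM per kb.

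**Figure D3:**
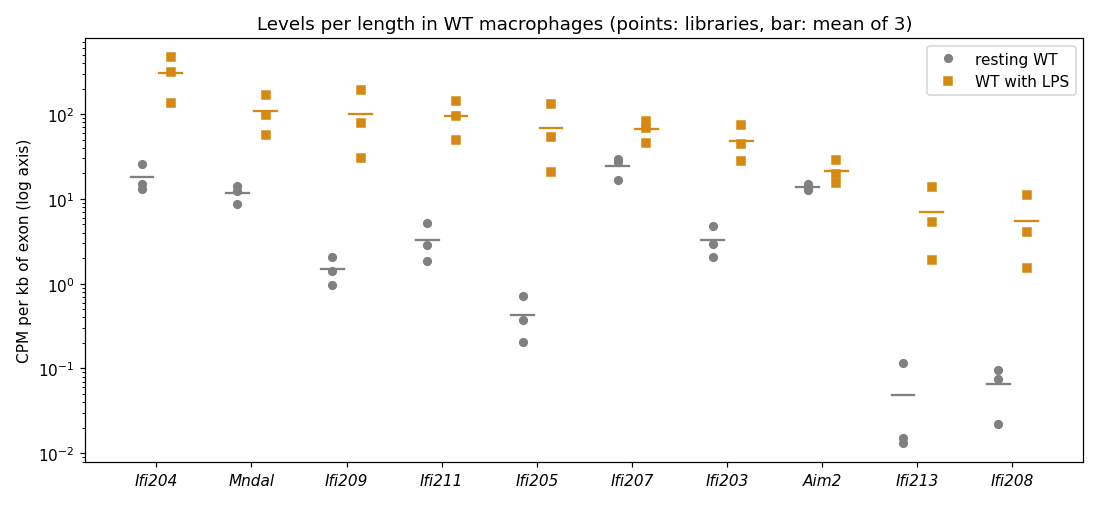
CPM per kb of exon on a log axis in the 3 resting (circles) and 3 LPS-treated (squares) WT libraries for each member, ordered by mean level with LPS, with the mean as a bar. Ifi204 leads with LPS at 306 CPM per kb, and the levels of Ifi208 and Ifi213 at rest are below 0.2 CPM per kb.

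The 3′F macrophages gave the LPS response of the same members. Here 9 of 10 were called higher, against 17.2% of all genes tested, and groups did not overlap for 10 of 10, against 25.1%. The member not called was Aim2, at 36.2, 37.2 and 40.3 CPM at rest and 62.0, 60.5 and 46.4 CPM with LPS (log2 fold change 0.58 ± 0.22, edgeR adjusted p = 0.0564). Its 3 LPS libraries were nonetheless above its 3 resting ones, and 5 of 12 alternative settings called it, with adjusted p from 0.00138 to 0.153 over the 12. Ifi204 went from 47.1, 41.8 and 33.5 CPM to 731, 746 and 503 CPM, a log2 fold change of 4.01 ± 0.72. Ifi205 went from 0.621, 0.174 and 0.936 CPM to 123, 107 and 73.4 CPM (7.73 ± 1.40). Ifi209 went from 6.49, 3.65 and 5.38 CPM to 334, 303 and 201 CPM (5.76 ± 1.18). The stimulated libraries of these genes stood far above the resting ones in 3′F as in WT. Mndal reached 208, 230 and 195 CPM (3.31 ± 0.63), and Ifi207 went from 109, 99.6 and 58.5 CPM to 228, 277 and 208 CPM (1.41 ± 0.31). Ifi213, with 13, 0 and 2 counts at rest, reached 34.4, 28.5 and 24.5 CPM. The median log2 fold change of the members was 4.24.

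In KO macrophages the LPS response of the members had a median log2 fold change of 1.27, and 2 of 10 members were called higher, Ifi205 and Aim2, against 14.3% of all genes. Groups did not overlap for 3 of 10 members, against 23.8%. The resting KO libraries differed among themselves. Ifi204 read 124, 93.0 and 977 CPM at rest and 904, 1153 and 905 CPM with LPS, so the third resting library lay within the range of the stimulated ones. The log2 fold change was 1.31 ± 0.64 (SE, edgeR adjusted p = 0.147). Ifi209 read 23.1, 14.8 and 610 CPM at rest and 499, 470 and 549 CPM with LPS, and the third resting library was above all 3 of the LPS libraries. With that library left out, 10 of 10 members were called, and 2322 of 11493 genes were called higher. The median log2 fold change of the members was then 3.36, against 1.27 with that library. Ifi204 then rose by 3.19 ± 0.43 and Aim2 by 1.05 ± 0.21 on the log2 scale. The KO response also lost calls without other single libraries, with 0 members called without resting KO replicate 1, without resting KO replicate 2 or without KO LPS replicate 2, and 1 called without KO LPS replicate 1 or without KO LPS replicate 3. These fits called 999 to 1402 of all genes higher, against 1627 in the main fit. With the replicate number as a block, which pairs the resting and LPS libraries of a number, 8 of 10 members of the KO response were called, all except Ifi207 and Ifi208, with a median log2 fold change of 2.34. The block fit called 1670 of 11357 genes higher. The labels give 3 mice per genotype but do not say which libraries came from the same mouse.

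The third resting KO library was the highest of all resting libraries for 10 of 10 members. Its level lay within the WT LPS range for 8 of 10, above the lowest WT LPS library for 10 of 10, and within the KO LPS range for 4 of 10. Compared with the mean of the first and second resting KO libraries it was 35.6-fold higher for Ifi213, 9.01-fold for Ifi204 and 1.67-fold for Aim2. Its neutrophil markers summed to 52.4 CPM, against 14.5 and 26.9 in the other resting KO libraries and 66.3 in the third resting 3′F library, where the members stayed low. S100a8 alone made up 48.3 of the 52.4. S100a9 read 2.47 CPM against 2.41 and 7.11 in the other resting KO libraries, and Camp 1.68 against 0.371 and 0.306. Ly6g, Retnlg, Ngp, Mpo and Elane read 0 in the third. The macrophage markers of the third resting KO library summed to 62440 CPM, beside 60757 and 60518 in the other resting KO libraries, and Lyz2 alone made up 55434 of the 62440. The sums of the 3 resting WT libraries ran from 31772 to 47835 CPM and did not overlap those of resting KO. Of the 8 macrophage markers, Csf1r and Fcgr1 were called higher and Itgam lower in resting KO than in resting WT. With LPS in WT, Adgre1, Csf1r, Itgam, Cd14 and Fcgr1 were called higher. Fcgr1, an Fc receptor gene, read 1136 CPM in the third resting KO library against 236 and 206 in the others. Adgre1, which encodes F4/80, read 1134 CPM against 1803 and 1797, and 4291 to 4895 in KO with LPS. Cd14 read 901 CPM against 1267 and 981, and 1444 to 1798 in KO with LPS. Csf1r and Itgam were also lower in that library than in the other resting KO libraries. The part of these markers in the result was not tested.

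**Figure D4:**
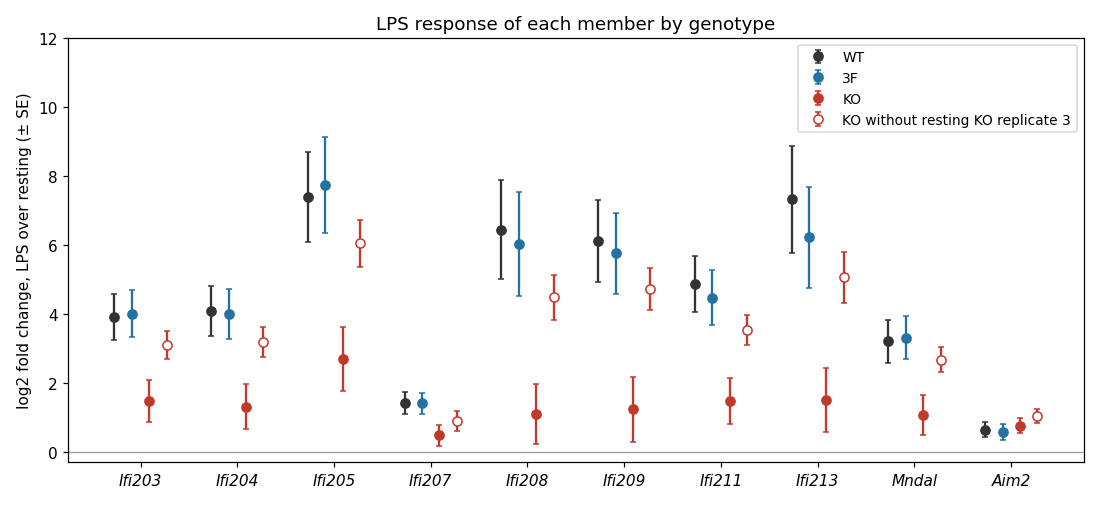
Log2 fold change of LPS over resting cells (vertical axis, points with SE bars) for each member in WT, 3F and KO, with open red points for KO without resting KO replicate 3. WT and 3F points lie close together for each member, and the KO points rise toward them for the Ifi genes and Mndal when that library is left out.

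At rest, 9 of 10 members were higher in KO than in WT macrophages. The 9 called were all members except Aim2, against 5.12% of genes called higher, and groups did not overlap for the same 9, against 13.7%. The median log2 difference was 3.59. Ifi204 read 124, 93.0 and 977 CPM in KO against 34.6, 30.3 and 58.9 CPM in WT, with all 3 KO libraries above all 3 WT libraries and a log2 difference of 3.27 ± 0.70 (SE, edgeR adjusted p = 0.00875). Ifi211 read 25.9, 16.2 and 222 CPM in KO against 3.35, 5.04 and 9.38 CPM, also without overlap, and differed by 3.91 ± 0.78. Ifi207 read 161, 135 and 295 CPM against 57.4, 93.4 and 102 CPM, a smaller difference of 1.22 ± 0.31 with no overlap. In each of these genes replicate 3 of the KO was the highest, at 9.01-fold the mean of the other resting KO libraries for Ifi204, 10.6-fold for Ifi211 and 1.995-fold for Ifi207. Ifi203 read 40.4, 29.1 and 257 CPM in KO (log2 difference 2.80 ± 0.65), and Mndal read 55.4, 36.7 and 329 CPM (2.48 ± 0.61). Ifi205 read 3.21, 2.60 and 86.5 CPM (5.50 ± 1.30), and Ifi209 read 23.1, 14.8 and 610 CPM (5.42 ± 1.15). Ifi208 read 0.927, 1.30 and 34.4 CPM and Ifi213 read 1.98, 1.22 and 57.0 CPM, from 15 counts or more in each library. Their resting WT side rests on 7 and 8 counts over 3 libraries. Aim2 read 38.5, 37.5 and 63.5 CPM in KO and 43.3, 38.5 and 37.0 CPM in WT, overlapping groups with a log2 difference of 0.23 ± 0.22 (edgeR adjusted p = 0.599).

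The first and second resting KO libraries alone also lay above every resting WT and every resting 3′F library for these 9 members, by 1.75-fold for Ifi207 to 6.66-fold for Ifi213 over the WT mean. For Aim2 the ratio was 0.959. The WT mean of Ifi213 rests on 8 counts, 6 of them in 1 library. The share of all genes with that order of libraries was not counted, so the 9 members have no background to be set against. Without the third library, 2 of the 9 kept an adjusted p under 0.05, namely Ifi204, with a log2 difference of 1.40 ± 0.37 (edgeR adjusted p = 0.0337), and Ifi211, with 1.88 ± 0.42 (adjusted p = 0.0138). The others then had log2 differences from 0.81 for Ifi207 to 2.92 for Ifi213 and adjusted p from 0.0508 to 0.209. Without the third library 415 of 11493 genes were called higher. The number of members called was also 3 without resting WT replicate 1 and 1 without resting WT replicate 2. In these fits 277 of 11520 and 189 of 11507 genes were called higher. When the 6 resting KO and WT libraries were fitted alone, 0 of the 9 were called by edgeR, with adjusted p from 0.101 to 0.15. In that fit 124 of 10851 genes were called higher.

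Against resting 3′F macrophages, 9 of 10 members were again higher in KO, against 6.79% of genes called higher and 15.8% with groups apart. This comparison shares the KO libraries with the one above. Ifi205 read 3.21, 2.60 and 86.5 CPM in KO against 0.621, 0.174 and 0.936 CPM in 3′F. No libraries overlapped, and the log2 difference was 5.97 ± 1.41 (edgeR adjusted p = 0.0142). Without the third resting KO library 2 members were called, Ifi204 (log2 difference 1.40 ± 0.38, edgeR adjusted p = 0.0345) and Ifi211 (1.51 ± 0.42, adjusted p = 0.0372). In that fit 506 of 11493 genes were called higher. Without resting 3′F replicate 3, the library with the fewest counts, 6 of 10 members were called, where 421 of 11433 genes were called higher. When the 6 resting KO and 3′F libraries were fitted alone 0 were called by edgeR, with adjusted p from 0.171 to 0.22 for the 9. Only 11 of 10944 genes were called higher in that fit, so 0 members says little about the members.

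**Figure D5:**
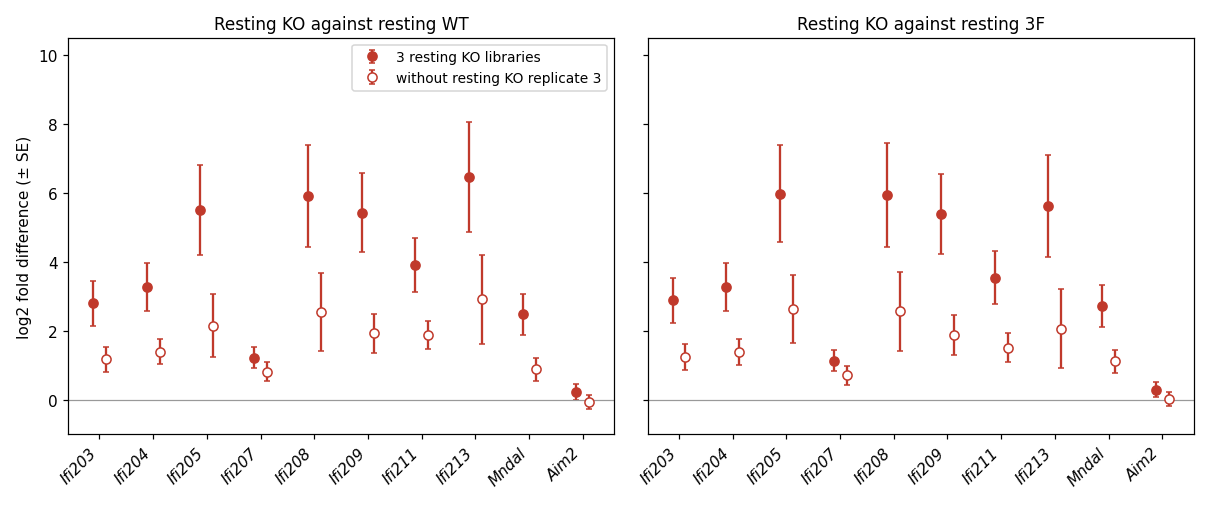
Log2 fold difference of resting KO from resting WT (left) and from resting 3F (right) for each member, with SE bars, for all 3 resting KO libraries (filled) and without the third (open). The differences of the 9 members other than Aim2 stay above 0 in both settings and are smaller without that library.

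With LPS, no member was called between KO and WT. The count was 0 of 10 by edgeR and by DESeq2, and 1 by limma-voom with quality weights. Of all 11357 genes, 215 were called higher by edgeR (1.89%), 382 by DESeq2 and 890 by limma-voom. At an unadjusted p under 0.05 the count of members was 0, against 18% of genes, and 0 had groups apart, against 16.9% apart and higher. All 10 differences were positive, with a median of 0.51, and Ifi205 had the largest at 0.80, with a 95% interval from -1.02 to 2.62. The spread among WT libraries was wide. The second WT LPS library was the lowest of all 9 LPS libraries for 10 of 10 members, and the ratio of highest to lowest library over the 9 members other than Aim2 had a median of 3.44 in WT with LPS against 1.21 in KO with LPS and 1.44 in 3′F with LPS. KO with LPS had the highest mean of the 6 groups for 10 of 10 members, but it overlapped the next group down for all except Ifi203. The share of all genes with their highest mean in that group was not counted.

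Between KO and 3′F with LPS the KO libraries were higher without overlap for 9 of 10 members, against 19.4% of genes. However, 0 of 10 were called by edgeR and 0 by DESeq2. Of all 11357 genes, edgeR called 172 higher (1.51%) and DESeq2 called 307 higher. Aim2 read 70.5, 92.0 and 73.1 CPM in KO and 62.0, 60.5 and 46.4 CPM in 3′F. Its log2 difference of 0.48 ± 0.22 (edgeR adjusted p = 0.277) was the 1 with an unadjusted p under 0.05, against 16.9% of all genes. When the 6 libraries of these groups were fitted alone, 8 of 10 members were called, where 831 of 10916 genes were called higher.

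No member differed between 3′F and WT at an adjusted p under 0.05 in either state. At rest 0 of 10 were called by edgeR and by DESeq2, 0 had an unadjusted p under 0.05, against 4.9% of genes, and the groups of 0 members lay apart, against 0% of genes called by edgeR and 7.12% apart. DESeq2 called 2 of 11357 genes. The median log2 difference of the members was -0.01. Ifi204 read 47.1, 41.8 and 33.5 CPM in 3′F against 34.6, 30.3 and 58.9 CPM in WT, with a log2 difference of -0.01 and a 95% interval from -1.39 to 1.38. With LPS 0 of 10 were called by both tools, 0 had an unadjusted p under 0.05 and 0 had groups apart, against 0.00881% (edgeR), 0.933% and 7.87% of genes. DESeq2 called 2 of 11357 genes. The median of the members was -0.13. The interval for Ifi204 was -1.43 to 1.26, so a difference of about that size was not detectable here. For Aim2, the most precisely measured member, the interval was -0.54 to 0.40 at rest.

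The test of whether the KO response to LPS differed from that of WT called 0 of 10 members by edgeR and 0 by DESeq2. Of all 11357 genes, edgeR called 0.00881% and DESeq2 called 23 genes. At an unadjusted p under 0.05, 9 of 10 members passed, against 4.93% of all genes, and 9 of the 10 fitted differences were negative, with a median of -3.08. Ifi209 had a difference of -4.88 ± 1.42 (edgeR adjusted p = 0.509). The resting KO libraries enter this contrast, and without the third the median was -1.13 with 0 members called, where 4 of 11493 genes were called. At an unadjusted p under 0.05, 1 of 10 members then passed, Ifi211, against 5.36% of all genes. With the replicate block 4 of 10 passed, against 5.10%, and the median was -2.05. The corresponding test for 3′F called 0 of 10, where 0% of all genes were called, with 0 by DESeq2 and 0 at an unadjusted p under 0.05, against 1.79% of genes.

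The members moved together across libraries. Over the 18 libraries, the 36 pairs among the 9 Ifi and Mndal genes had correlations of log2 CPM from 0.926 to 0.997, and Aim2 correlated with each at 0.807 to 0.910. The points share depth and groups, so these values are a description. Within groups, after the group mean was removed, the 36 pairs ranged from 0.704 to 0.990. The genes outside the family most like its mean included Ifih1, Rsad2, Dtx3l and Ifi47, each at 0.997 or 0.998 over the 18 libraries.

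Neighbours in the cluster that are not members behaved in part alike. Ifi206 went from 0, 0.0753 and 0.483 CPM in resting WT to 16.1, 7.23 and 41.9 CPM with LPS (log2 fold change 7.03 ± 1.48, edgeR adjusted p = 0.00221), and it was also called in resting KO against WT (5.97 ± 1.56, adjusted p = 0.0247). It read 0.865, 0.765 and 31.5 CPM in resting KO, with the third library far above the others. Ifi214 was called in 0 of the comparisons by edgeR, the smallest adjusted p being 0.0658. Ifi202b had 3 counts in all 18 libraries together and was not tested.

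Among 19 tested genes of DNA sensing and the inflammasome, 13 rose and 1 fell with LPS in WT, against 16.3% of all genes called higher, and 7 were higher and 0 lower in resting KO than in resting WT, against 5.12% called higher. Zbp1, a sensor of Z-form nucleic acid, read 5.25, 3.29 and 115 CPM in resting KO and 0.854, 0.527 and 1.26 CPM in resting WT. Its groups did not overlap and the log2 difference was 5.54 ± 1.16 (edgeR adjusted p = 0.00798). Il18, whose product caspase-1 matures, was higher by 1.85 ± 0.44 on the log2 scale (edgeR adjusted p = 0.0156). It read 12.7, 11.1 and 43.6 CPM in resting KO and 6.57, 4.44 and 7.35 CPM in resting WT. Pycard, the adaptor of AIM2, had a log2 difference of 0.12 ± 0.28 (adjusted p = 0.855) and Casp1 one of 0.53 ± 0.27 (adjusted p = 0.254), neither past the threshold. Among 13 tested genes of the interferon signal, 11 rose with LPS in WT and 7 were higher in resting KO, with 0 lower, against the same 16.3% and 5.12%. Irf7, a transcription factor of the interferon response, read 48.8, 32.0 and 815 CPM in resting KO against 7.16, 8.36 and 17.1 CPM in resting WT, so resting KO replicate 3 stood apart as it did for the Ifi genes. The median difference of resting KO from WT was 1.44 for the 13 and 0.60 for the 19, beside 0.02 for all genes. The resting KO counts and medians of both lists include replicate 3 and were not repeated without it.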

How the data were processed

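The authors extracted RNA, depleted ribosomal RNA, made directional libraries, trimmed reads with cutadapt 1.8.3, aligned them to mm10 with HISAT2 2.1.0 and counted reads per Gencode M15 gene with featureCounts 1.5.3. The deposited table holds raw counts. The members and gene lists were chosen with earlier results of these data known.

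Counts were analysed in R 4.3.3 with edgeR 4.0.16. filterByExpr kept 11357 of 21734 genes and all 10 members. All 18 libraries entered 1 quasi-likelihood fit with TMM scaling (factors 0.812 to 1.15), 6 group coefficients and no covariate. Tests were two-sided, with Benjamini-Hochberg adjusted p values over the 11357 genes and a call under 0.05. A SE is the log2 fold change divided by the square root of F. The fit was tested on simulated data with known changes.

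The text names all members, further genes of the cluster, up to 3 genes per list with the largest difference in resting KO against WT, and the 5 genes most like the members' mean, of which 1 is not reported here. Pycard and Casp1 were named after their values were seen. Replicates are biological per the labels, and no pair was a duplicate library. The labels give 3 mice per genotype, so resting and LPS libraries of a genotype may share mice, but replicate numbers are not stated to mark the same mouse. Floors of 3 counts cover counting error only. Alternatives were RLE scaling, no filter, DESeq2 1.42.0, limma 3.58.1 voom with quality weights, the compared groups alone, a replicate block and leaving out each library. For the LPS responses and their differences, the block paired resting and LPS libraries of a number within a genotype. For comparisons between genotypes, it tied equal numbers across all groups. Promoter and miRNA sequences are from RefSeq, GRCm38.p6, and positions from Gencode M21. The proteome was not analysed here.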

Additional observations from a re-analysis of the deposited data

How the results depend on the processing

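Of 144 alternative counts of members called, 126 stayed within 1.5 times the main count, or at 0 where it was 0, and 18 did not. Most of the 126 were counts of 0 beside a main count of 0, so the tally says little about the counts above 0. RLE scaling, DESeq2 and no filter moved no count of members out of these limits. For the LPS response in KO, 2 members were called in the main fit, 10 with quality weights, 0 with the compared groups alone, and 0 to 10 when each library was left out. In the same order, 1627, 3440, 1200 and 999 to 2322 genes were called higher, of 10950 to 11516 tested. For resting KO against WT, 9 members were called, 4 with quality weights, 0 with the compared groups alone, and 1 to 9 when each library was left out. Genes called higher numbered 582, 1085, 124 and 189 to 629, of 10851 to 11520 tested. For resting KO against 3′F, 9 members were called, 0 with the compared groups alone, and 2 to 9 when each library was left out. Genes called higher numbered 771, 11 and 421 to 827, of 10944 to 11518 tested. For KO against WT with LPS, 0 members were called and 1 with quality weights, where 215 and 890 of 11357 genes were called higher. For KO against 3′F with LPS, 0 members were called and 8 with the compared groups alone. There 172 of 11357 and 831 of 10916 genes were called higher. The cause of these moves was not tested. Single members were followed in the LPS responses, resting KO against WT and 3′F, and the KO against WT difference in response. There Aim2 changed sign without single libraries. Its log2 difference of resting KO from WT ran from -0.0602 (without resting KO replicate 3) to 0.36. The difference between its KO and WT responses ran from -0.0673 (without WT LPS replicate 2) to 0.40. No other member reversed in these comparisons. Signs of single members were not followed elsewhere. For 3′F against WT with LPS, the members' median went from -0.13 to 0.161 with the block that ties equal replicate numbers across all groups.

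The main fit took replicate numbers as names only. Same-numbered resting and LPS libraries of a genotype correlated at -0.0019 to 0.342, with 5 of 9 pairs over 0.1 and 6 of 9 best with their own number. With the replicate block, 8 members were called in the LPS response of KO, 9 in that of WT and 9 in that of 3′F. In these responses, 1670, 1676 and 1864 of 11357 genes were called higher with the block. Between genotypes the block instead tied equal numbers across all groups, a link that the labels do not give. Same-numbered libraries of 2 genotypes were best with their own number in 3 of 9 pairs at rest and 2 of 9 with LPS. No other count of members moved with either form of block. Depth limits Ifi208, Ifi213 and, to a lesser degree, Ifi205 at rest, where 3 counts equal up to 0.702 CPM. Resting 3′F replicate 3 had the fewest counts and the lowest quality weight of all libraries, 0.149, beside 0.168 for resting KO replicate 3.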
